A study of Homo sapiens with 6 samples.

Results

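Of the 500 genes in the deposited table of RKO cells with and without SQLE knockdown, 116 were well measured and lower after the knockdown, and these 116 genes are described here by what their products do. They were selected on the measured values themselves, as genes that reached 10 in all 6 libraries and whose highest shSQLE value lay below their lowest shNT value, and 25 genes that the rule names, among them SQLE, chemokines, NF-kB regulators and p53 targets, were left out. At least 10 in all 6 libraries was reached by 193 of the 500 genes, and among these 193 the shSQLE libraries lay wholly below the shNT libraries for 140 (72.5%) and wholly above them for 46. Of the 140, 24 were on the list of names left out, which leaves 116. Since the table holds genes that the authors had already selected for differing between the same libraries, nothing is read from these shares, and no test of the difference between the groups is given for the members.

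RKO is a cell line that was derived from a human colorectal cancer. The RNA-sequencing libraries came from RKO cells with a non-targeting hairpin, labelled wild type in genotype (shNT, 3 libraries), and from RKO cells with a hairpin against SQLE (shSQLE, 3 libraries), both grown in DMEM with bovine calf serum. The labels name no drug for any library and do not say which of the study's hairpins was sequenced, whereas the text of the study places the comparison after 5-fluorouracil, so the presence of the drug cannot be settled here. The titles of both groups also carry the tag Ctrl without explaining it. The design text of the series speaks of duplicates, whereas 3 libraries are labelled in each group. The labels do not say whether the libraries of a group came from separate cultures, so the spread between them may be technical. Values are pseudo-counts, that is, fractional values adjusted to a common library size, and the sequencing depth is unknown. SQLE itself kept 4.35% of its shNT mean in shSQLE. Over the 116 genes together, the values summed to between 112101 and 117988 in the shNT libraries and to between 47653 and 47784 in the shSQLE libraries, so the 3 libraries of each group were close in sum. Of the epithelial, mesenchymal and leukocyte markers looked up, 0 of 14 were in the table, and of the endothelial markers 1 of 2 was, so the table cannot be used to check the cell type.

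Squalene epoxidase, the product of SQLE, converts squalene to its epoxide in the cholesterol pathway, and its loss is known to lower sterol output and to let squalene build up. When sterols run low, the SREBP transcription factors raise the genes of cholesterol synthesis and uptake. Growth factors of the EGF family act through the ERK pathway on AP-1 and SRF, which switch on genes for proteases, matrix, cytoskeletal regulators and feedback inhibitors, and YAP with TEAD acts on an overlapping set of genes. This is given as background and not as a cause of the values.

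Across the 116 genes the median log2 fold change, shSQLE against shNT on log2(value + 1), was -1.22, with a median standard error (SE) of 0.208, and single values ran from -2.91 for HAS2 to -0.94 for SDCCAG8. The same median was -1.13 over the 193 well measured genes, -1.38 over all 473 genes with enough signal to be fitted, -1.50 over the 24 genes left out by name and 1.16 over the 46 well measured genes that were higher. A log2 fold change of -2 or less was reached by 10 of the 116 genes, where 17 of the 193 well measured genes (8.81%) reached it. Most members were therefore close to a halving, with 66 of 116 above -1.25 and 29 at -1.50 or below, and the authors' own selection of at least a 2-fold difference sets that edge.

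**Figure D1:**
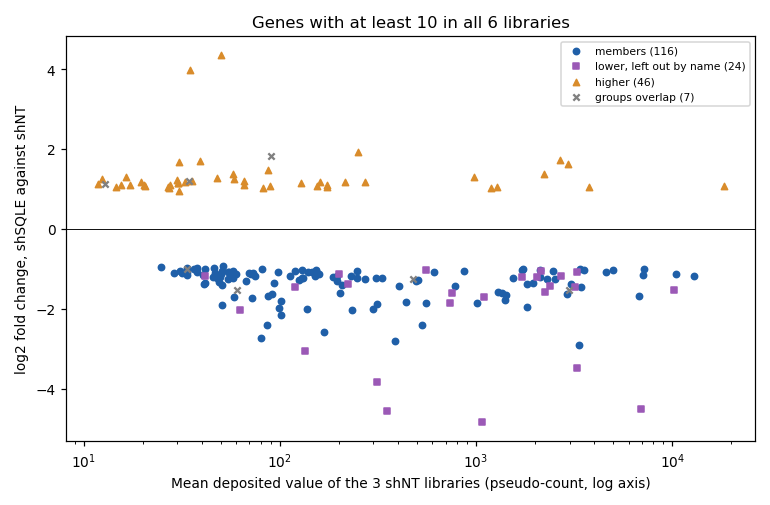
Mean deposited value of the 3 shNT libraries on the horizontal axis (pseudo-count, log axis) against the log2 fold change of shSQLE against shNT on the vertical axis, for the 193 genes with at least 10 in all 6 libraries. The 116 members (circles) lie between -2.91 and -0.94 at all levels, and the 24 genes left out by name (squares) include the lowest points of the plot.

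The precision followed the level of a gene. The 29 members with an shNT mean of at least 1000 had a median coefficient of variation of 5.94% over the shNT libraries and 6.01% over the shSQLE libraries. The 47 members under 100 had 19.1% and 28.1%, so statements about these genes are less firm. Their median log2 fold changes lay close together, at -1.26 for the 29, at -1.25 for the 40 genes between 100 and 1000, and at -1.13 for the 47. At the edge set by the minimum of 10, EBI3 with a lowest value of 10.1, PLA2G4C with 10.3 and TMEM217 with 10.5 were just inside, and SLX1B with 9.89, LOC101928841 with 9.72 and NPHS1 with 9.71 were just outside. At the edge set by the overlap, the lowest shNT value was 1.08 times the highest shSQLE value for SDCCAG8, 1.16 times for HIGD1B and 1.17 times for MYO15B, and it was 0.991 times for HAL and 0.901 times for CDHR5, which were left outside. Below the minimum of 10, another 200 genes of the table had groups that did not overlap and were lower in shSQLE.

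**Figure D2:**
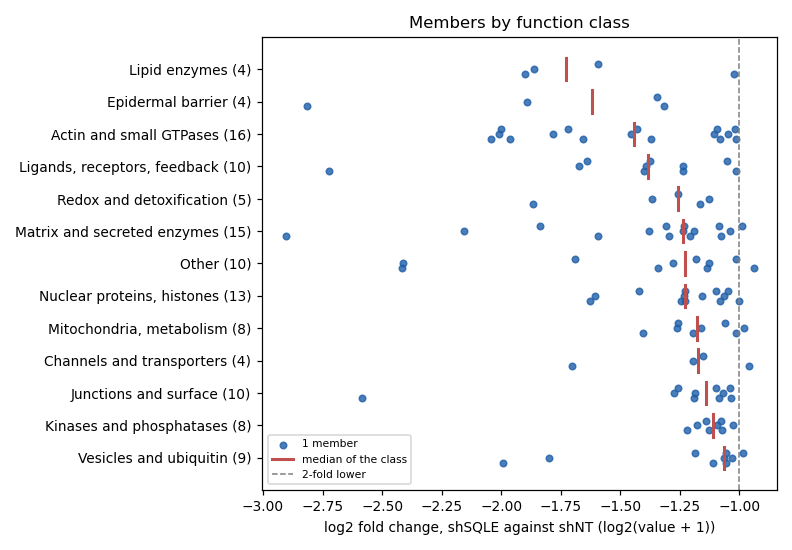
Log2 fold change of each of the 116 members (points) by function class, with the median of the class as a vertical bar, the number of genes in parentheses and a dashed line at -1 (2-fold lower). Class medians run from -1.73 for the 4 lipid enzymes to -1.07 for the 9 vesicle and ubiquitin genes, an order whose ends change with the pseudocount and with the libraries used, and the single genes of most classes reach back to about -1.

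For 84 of the 116 genes a promoter was found in the RefSeq table of GRCh38.p14, which covers 250 bases before to 50 bases after the start site. Because that is fewer than 80% of the members, a comparison of motif shares between the members and other genes would be void. The counts below stand beside the share of all promoters as a description only, and no difference is read from them. Of the 84 promoters, 9 hold the AP-1 word TGANTCA on either strand, and 2120 of all 27305 promoters in the table (7.76%) do. The other words searched, also on either strand, were the NF-kB consensus (10 of the 84, and 10.8% of all promoters), the TEAD word GGAATG (14, and 14.0%), the TATA box TATAAA (13, and 11.95%), the cAMP response element TGACGTCA (3, and 1.98%) and the core of the sterol element TCACNCCAC (1, and 1.15%). The 4 of the 9 AP-1 genes with the largest decreases are shown as examples. They were picked by word and by size of decrease, and whether AP-1 has a part in their decreases was not tested. Each line is 25 bases, the AP-1 word in capitals and 25 bases, 5′ to 3′ on the strand of the gene. They lie at chr19:4229380-4229436 (plus strand, first capital at -118 from the start site) for EBI3, chr1:152325287-152325343 (minus strand, -79) for FLG, chr16:67278080-67278136 (plus strand, -57) for PLEKHG4 and chr16:83953118-83953174 (plus strand, -97) for OSGIN1. In FLG the word overlaps the TEAD word GGAATG, which begins at -83, and EBI3 also holds an NF-kB consensus match at -214. A match of letters is not evidence that a factor binds there.
EBI3: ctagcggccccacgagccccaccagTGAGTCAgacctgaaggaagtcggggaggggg
FLG: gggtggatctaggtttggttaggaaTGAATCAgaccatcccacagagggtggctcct
PLEKHG4: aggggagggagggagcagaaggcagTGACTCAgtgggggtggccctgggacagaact
OSGIN1: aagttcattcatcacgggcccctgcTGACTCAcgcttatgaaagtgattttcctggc

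**Figure D3:**
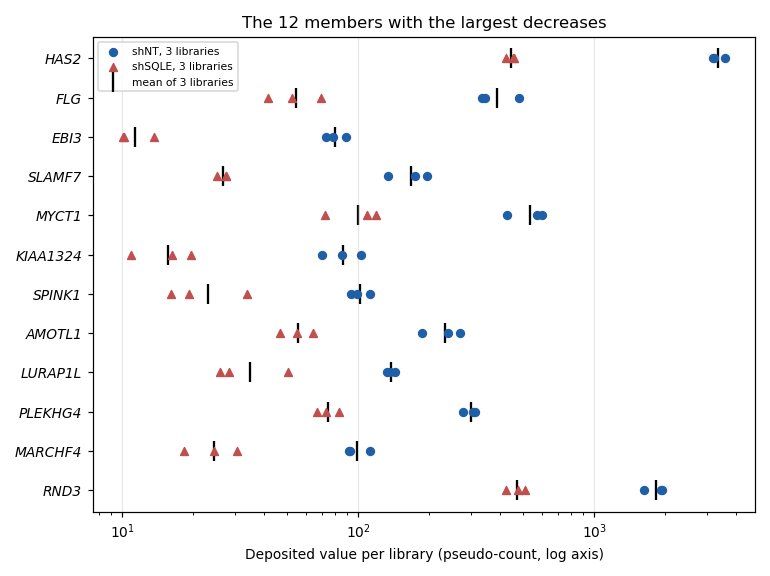
Deposited value in each library (pseudo-count, log axis) for the 12 members with the largest decreases, with shNT libraries as circles, shSQLE libraries as triangles and the mean of 3 libraries as a vertical mark. The gap is widest for HAS2, whose lowest shNT value is 6.97 times its highest shSQLE value.

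Extracellular matrix and secreted enzymes made up 15 of the 116 genes, and their median log2 fold change was -1.24. The largest decrease of all members was that of HAS2, which makes the long sugar chain hyaluronan at the cell surface. Its values were 3583, 3223 and 3198 in shNT and 451, 422 and 459 in shSQLE, a log2 fold change of -2.91 (SE 0.0806), so that 13.3% of the shNT mean remained. UAP1 makes UDP-N-acetylglucosamine, one of the sugars that HAS2 joins together, and it had the highest shNT mean of the 116 genes. Its values were 13134, 11613 and 13832 in shNT and 5415, 5743 and 5717 in shSQLE, a log2 fold change of -1.19 (SE 0.0701). Per kilobase of exon, with all annotated exons of a gene joined, the shNT means were 3742 for UAP1 and 796 for HAS2. UAP1 was thus also the higher of these genes by that length. TMEM5, now named RXYLT1, adds xylose to the glycan of dystroglycan that holds the matrix, and had 594, 614 and 617 in shNT and 315, 239 and 317 in shSQLE, a log2 fold change of -1.08 (SE 0.13). HAPLN3, which links hyaluronan to its proteoglycans, was at the low end of the class with an shNT mean of 41.2 and a log2 fold change of -1.38 (SE 0.34), and IDUA, a lysosomal enzyme that trims sulphated sugar chains, had -1.31.

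MMP1, the interstitial collagenase, had 355, 447 and 522 in shNT and 159, 110.1 and 102 in shSQLE, a log2 fold change of -1.84 (SE 0.204). Its 3 shSQLE libraries spread more than its shNT libraries did in relation to their mean, with replicate 1 the highest. SPINK1, a secreted trypsin inhibitor, had 112, 93.3 and 98.6 in shNT and 16.01, 19.2 and 33.8 in shSQLE, a log2 fold change of -2.16 (SE 0.299), and 22.7% of its shNT mean remained. The other 8 genes of the class ran from -1.60 for THSD4 to -0.99 for SERPINE2. They include the fibrillar collagen chain COL11A2, the cross-linking transglutaminase TGM2, the mucin MUC5B, the thrombin inhibitor SERPINE2, the fibrillin-associated THSD4, ADAM11 and the adhesion protein MXRA8. The largest decreases of the class were thus those of HAS2, SPINK1, MMP1 and THSD4. The structural chain COL11A2 stood nearer to a halving at -1.21, as did the enzymes UAP1 at -1.19 and TGM2 at -1.04.

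Secreted ligands, receptors and feedback inhibitors of signalling were 10 genes with a median of -1.38. Among the ligands, CYR61 (now CCN1), a matrix-bound protein that signals through integrins and a classical target of YAP, had 7297, 6957 and 7215 in shNT and 3657, 3561 and 3416 in shSQLE, a log2 fold change of -1.01 (SE 0.0548). This was the smallest decrease of the class, at the smallest SE of all 116 genes. HBEGF, a membrane-anchored ligand of the EGF receptor, had 1666, 1974 and 1834 in shNT and 660.3, 713 and 706 in shSQLE, a log2 fold change of -1.39 (SE 0.0876). Its lowest shNT value was 2.34 times the highest shSQLE value, though the rule requires some gap of every member. EBI3, a secreted subunit shared by cytokines of the interleukin IL-12 family, was one of the largest decreases among the 116, with 73.2, 77.98 and 88.5 in shNT and 13.7, 10.1 and 10.2 in shSQLE, a log2 fold change of -2.72 (SE 0.27). Its lowest shSQLE values touch the minimum of 10, and its promoter holds the AP-1 word shown above.

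Among receptors, NRP1, a co-receptor for semaphorins and VEGF, had 6923, 6498 and 6792 in shNT and 2212, 2075 and 2044 in shSQLE, a log2 fold change of -1.67 (SE 0.0604), which left 31.3% of the shNT mean. SPRY2, a Sprouty protein that dampens receptor tyrosine kinase signalling to ERK and is itself induced by it, had 2856, 3083 and 3157 in shNT and 1252, 1081 and 1173 in shSQLE, a log2 fold change of -1.38 (SE 0.0796). Per kilobase of all annotated exons joined, the order was different from the order by value, with 2915 for CYR61, 998 for SPRY2, 605 for HBEGF and 585 for NRP1. The joined exons come to 11522 bases for NRP1 and 2455 for CYR61, so this order may not hold for the transcripts present. The other 5 genes, the netrin receptor UNC5A, the TNF family ligand TNFSF15, the neuronal pentraxin receptor NPTXR, the serotonin receptor HTR2B and the secreted FAM132A (now C1QTNF12), ran from -1.64 for NPTXR to -1.05 for TNFSF15.

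Regulators of actin, myosin and small GTPases were the largest class, with 16 genes and a median of -1.44. The highest values belonged to ENC1, an actin-binding kelch protein, with 3477, 3456 and 3359 in shNT and 1345, 1213 and 1203 in shSQLE, a log2 fold change of -1.45 (SE 0.0701). MICAL2, an enzyme that oxidises nuclear actin and so feeds SRF signalling, had 3429, 3511 and 3226 in shNT and 1708, 1591 and 1715 in shSQLE, a log2 fold change of -1.02 (SE 0.0673). RND3, a small GTPase-like protein that opposes contraction driven by the kinase ROCK, had 1941, 1626 and 1919 in shNT and 510.1, 423 and 473 in shSQLE, a log2 fold change of -1.96 (SE 0.106), and only 25.6% of its shNT mean remained. In RND3 the lowest shNT value was 3.19 times the highest shSQLE value, the widest gap of these highest genes. The largest decrease of the class was that of AMOTL1, an angiomotin that holds YAP at junctions and is also induced by YAP, with 269.6, 187 and 240.0 in shNT and 46.7, 55.2 and 64.4 in shSQLE, a log2 fold change of -2.04 (SE 0.198). AMOTL1 was about as far below shNT as PLEKHG4 at -2.001 (SE 0.145), an exchange factor for small GTPases whose promoter is shown above, and LURAP1L at -2.01 (SE 0.265), and these values differ by less than their SE. The other 10 genes ran from -1.78 for MSN to -1.01 for PLEKHG1. MSN (moesin), which ties actin to the membrane, had -1.78, TMSB4X (thymosin beta 4), which sequesters actin monomers, had -1.65, and ANXA1 (annexin A1), which binds membrane phospholipid in the presence of calcium, had -1.43. The Rac exchange factor PREX1 stood at -1.72, the myosin light chain MYL5 at -1.37 and the unconventional myosin gene MYO15B at -1.11. The GTPase regulators ARHGAP23, PLEKHG1 and ACAP1 and the fascin FSCN2 lay between -1.09 and -1.01. In this class 18.1% of the 32-base words of TMSB4X and 10.2% of those of MSN also occur in other genes, mainly processed copies, and 15.2% of those of ARHGAP23 do, so their values are less certain.

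Proteins of the epidermal barrier, which belong to skin rather than to colon, were 4 genes with a median of -1.62. FLG encodes filaggrin, which bundles keratin in the outer skin, and had 480.0, 335 and 343 in shNT and 69.3, 52.4 and 41.4 in shSQLE, a log2 fold change of -2.82 (SE 0.225). Replicate 1 was the highest shNT library for FLG and also for HRNR (hornerin), a relative of filaggrin, which had 392, 252 and 296 in shNT and 88.9, 84.8 and 73.6 in shSQLE, a log2 fold change of -1.89 (SE 0.186). ALOXE3, a lipoxygenase that makes barrier lipids, had 533, 467 and 489 in shNT and 212, 202 and 182 in shSQLE, a log2 fold change of -1.32 (SE 0.115). Its libraries were the tightest of the class within each group. LCE1F, a late cornified envelope protein, had 49.1, 35.9 and 40.5 in shNT and 12.5, 12.8 and 24.2 in shSQLE, a log2 fold change of -1.35 (SE 0.347). FLG (chromosome 1, 152302175 to 152325203, minus strand), HRNR (chromosome 1, 152212082 to 152224193, minus strand) and LCE1F (chromosome 1, 152776372 to 152776728, plus strand, all GRCh38) are neighbours in the epidermal differentiation cluster, 77981 bases apart for FLG and HRNR and 451168 for FLG and LCE1F. ALOXE3 lies on chromosome 17. For LCE1F 28.5% of the 32-base words also occur in other genes, mainly LCE1E, so that its reads may be those of a relative.

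Junction and other surface proteins were 10 genes with a median of -1.14. CLDN12, a claudin of tight junctions, had 4494, 4436 and 4816 in shNT and 2136, 2191 and 2215 in shSQLE, a log2 fold change of -1.07 (SE 0.0607). USP53, a tight-junction protein related to ubiquitin proteases, had 2259, 1682 and 2390.2 in shNT and 978, 940.4 and 1143 in shSQLE, a log2 fold change of -1.04 (SE 0.138). The tetraspanin CD82 had 439, 556 and 533 in shNT and 237, 209 and 184 in shSQLE, a log2 fold change of -1.28 (SE 0.141). These genes were close to a halving, and SLAMF7, an immune cell receptor, was not, with 174, 134 and 196 in shNT and 25.3, 27.6 and 27.5 in shSQLE, a log2 fold change of -2.59 (SE 0.208). All 3 shSQLE values of SLAMF7 lay within 3 pseudo-counts of each other, and 16.0% of its shNT mean remained. The other 6 genes ran from -1.26 for TSPAN10 to -1.04 for ICAM2, and include the gap junction protein GJC1, the integrin ligand ICAM2, the retinal cadherin CDH4, the tetraspanin TSPAN10 and the GPI-anchored LY6K and PSCA. LY6K shares 71.0% of its exon bases with exons of another annotated gene and ICAM2 26.8%, and no source used here gives the strand setting of the counting, so reads of these neighbours could be included.

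Redox and detoxification genes were 5, with a median of -1.26, and they were among the most precisely measured. MGST1, a microsomal glutathione transferase, had 10565, 10337 and 10454 in shNT and 4409, 4918 and 5036 in shSQLE, a log2 fold change of -1.13 (SE 0.0615). HMOX1, the inducible heme oxygenase, had 7738, 6972 and 6662 in shNT and 3142, 3374 and 3016 in shSQLE, a log2 fold change of -1.16 (SE 0.0737). AOX1, an aldehyde oxidase, had 2015, 2031 and 1822 in shNT and 826, 697 and 752 in shSQLE, a log2 fold change of -1.37 (SE 0.0899). The largest decrease was that of OSGIN1, which is induced by oxidative stress and NRF2, with 560.3, 567 and 543 in shNT and 154, 148 and 154 in shSQLE, a log2 fold change of -1.87 (SE 0.103), and its promoter holds the AP-1 word at -97. The fifth gene, AHRR, the repressor of the aryl hydrocarbon receptor, stood at -1.26 (SE 0.171). Per kilobase of all annotated exons joined, HMOX1 at 2962 was above MGST1 at 1405, the reverse of their order by value. The joined exons come to 2405 bases for HMOX1 and 7440 for MGST1. They are not the length of a transcript, so this order may not hold for the transcripts present.

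Lipid enzymes, the class nearest to the biochemistry of SQLE, were 4 genes with a median of -1.73. FADS2, a fatty acid desaturase and an SREBP target, had 1663, 1838 and 1657 in shNT and 862, 862 and 809 in shSQLE, a log2 fold change of -1.02 (SE 0.0785). MGLL, which splits monoacylglycerol including an endocannabinoid, had 1212, 1349 and 1344 in shNT and 461, 449 and 383 in shSQLE, a log2 fold change of -1.60 (SE 0.101). NCEH1, which hydrolyses cholesteryl esters and acetylated ether lipids, had 1025, 979.6 and 1038 in shNT and 273, 303 and 259.6 in shSQLE, a log2 fold change of -1.86 (SE 0.0973). The 3 shSQLE libraries of MGLL and NCEH1 thus lay far below those of shNT, and the gap was smaller for FADS2. PLA2G4C, a cytosolic phospholipase, had 62.1, 33.02 and 57.6 in shNT and 11.7, 15.8 and 10.3 in shSQLE, a log2 fold change of -1.90 (SE 0.353), with a larger SE at its lower level. MGLL and NCEH1 kept 33.1% and 27.5% of their shNT means and FADS2 49.1%. Of 40 genes of cholesterol synthesis and SREBP regulation looked up, FADS2 was the 1 member. The genes of the sterol pathway that are not among the 500 were not analysed here.

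Mitochondrial and other metabolic genes were 8 with a median of -1.18. RFK, the kinase that makes FMN from riboflavin, had 2444, 2415 and 2725 in shNT and 980.4, 1144 and 1034 in shSQLE, a log2 fold change of -1.26 (SE 0.0859). COX7A2L, which helps to join respiratory complexes into supercomplexes, had 2138, 2384 and 2359 in shNT and 894, 1008 and 969.8 in shSQLE, a log2 fold change of -1.26 (SE 0.0808). CARNMT1, which methylates carnosine, had 2115, 2067 and 2148 in shNT and 857, 962 and 943 in shSQLE, a log2 fold change of -1.20 (SE 0.0751). These were tightly measured and alike, with 41.7% for RFK, 41.7% for COX7A2L and 43.6% for CARNMT1. The largest decrease was that of CKMT1B, a mitochondrial creatine kinase, with 287, 159 and 175 in shNT and 56.3, 89.7 and 82.3 in shSQLE, a log2 fold change of -1.41 (SE 0.265), though 59.8% of its 32-base words also occur in other genes, mainly its copy CKMT1A. The other 4 genes, the mitochondrial ribosomal protein MRPL18, the folate enzyme MTHFS, the adenylosuccinate synthase ADSSL1 and HIGD1B, ran from -1.16 for ADSSL1 to -0.98 for MTHFS, and MTHFS shares 34.0% of its exon bases with the read-through gene ST20-MTHFS.

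Kinases, phosphatases and their adaptors were 8 genes with a median of -1.11 and no decrease beyond -1.22. SIK1, a salt-inducible kinase of the cAMP response, had 3628, 3617 and 3375 in shNT and 1782, 1735 and 1686 in shSQLE, a log2 fold change of -1.03 (SE 0.0638), but 94.1% of its 32-base words also occur in SIK1B, so the pair cannot be told apart. PTP4A3, a phosphatase linked to metastasis of colorectal cancer, had 185, 115 and 175 in shNT and 60.3, 69.02 and 81.7 in shSQLE, a log2 fold change of -1.14 (SE 0.225). WNK4, a kinase that controls ion cotransporters, had 141, 147 and 148 in shNT and 62.2, 63.4 and 81.6 in shSQLE, a log2 fold change of -1.08 (SE 0.172). In PTP4A3 the shNT library of replicate 2 stood below the others, and in WNK4 the shNT libraries were close together. SH2D5, an adaptor with an SH2 domain, had 48.1, 50.7 and 37.5 in shNT and 18.1, 17.4 and 21.1 in shSQLE, a log2 fold change of -1.22 (SE 0.274). The other 4 genes, the tyrosine phosphatase PTPN22, the splicing-factor kinase SRPK3, the kinase STYK1 and the Ras exchange factor RASGRP3, ran from -1.18 for PTPN22 to -1.07 for SRPK3. The 8 genes thus spanned a narrow band of log2 fold changes, from -1.22 to -1.03.

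Nuclear proteins were 13 genes with a median of -1.23. FOXD1, a forkhead transcription factor, had 3417, 2385 and 2909.9 in shNT and 1022, 899 and 876 in shSQLE, a log2 fold change of -1.63 (SE 0.129), the largest decrease of the class. HIST1H2BK, a replication-type H2B gene whose transcript can also be polyadenylated, had 1537, 1495 and 1627 in shNT and 659.8, 623 and 684 in shSQLE, a log2 fold change of -1.24 (SE 0.0798). TAF13, a subunit of the general factor TFIID, had 1341, 1304 and 1422 in shNT and 449.8, 524 and 372 in shSQLE, a log2 fold change of -1.61 (SE 0.126), and its 3 shSQLE values spread more than its shNT values. With HIST1H2AC at -1.23 (SE 0.156), HIST1H3E at -1.16 (SE 0.333) and HIST1H3H at -1.001 (SE 0.218), 4 histone genes of chromosome 6 were members. For HIST1H2BK 85.7% of the 32-base words occur in other genes, mainly H2BFS, and for HIST1H3H 0.498% do, so the uncertainty from shared sequence differs within the family. The other 7 genes, GREB1, known as an oestrogen-induced gene, the homeobox gene ZFHX2, the meiotic C19orf57, the zinc finger gene ZNF425, EID3, the nuclear body protein SP140 and the RNA-binding NANOS1, ran from -1.42 for GREB1 to -1.05 for SP140.

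Vesicle, membrane-traffic and ubiquitin genes were 9 with a median of -1.07. SYPL1, a vesicle protein of the synaptophysin family, had 4874, 4600.0 and 5531 in shNT and 2352, 2419 and 2551 in shSQLE, a log2 fold change of -1.03 (SE 0.079). KBTBD8, a substrate adaptor of the ubiquitin ligase CUL3, had 2519.6, 2197 and 2664 in shNT and 1196, 1112 and 1208 in shSQLE, a log2 fold change of -1.07 (SE 0.088). RP2, which activates the GTPase of ARL proteins, had 791, 829 and 976 in shNT and 473, 416 and 359 in shSQLE, a log2 fold change of -1.06 (SE 0.129). These genes of higher level were all close to a halving. MARCHF4, a Golgi ubiquitin ligase whose name reads as a calendar date in the table, had the largest decrease, with 91.2, 112 and 92.3 in shNT and 24.4, 30.6 and 18.2 in shSQLE, a log2 fold change of -1.99 (SE 0.253). It was followed by TRIML2, a TRIM-like protein, at -1.80 (SE 0.23). The other 4 genes, the palmitoyltransferase ZDHHC1, LRRC29, synaptophysin (SYP) and EXOC3L4, ran from -1.19 for ZDHHC1 to -0.98 for EXOC3L4.

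Channels and transporters were 4 genes, all of low level, with a median of -1.17. SCN2A, a neuronal sodium channel, had 64.1, 59.5 and 51.7 in shNT and 20.02, 12.7 and 19.8 in shSQLE, a log2 fold change of -1.70 (SE 0.286), the largest decrease of these. MFSD7 (now SLC49A3), a member of the major facilitator family, had 47.1, 40.3 and 61.4 in shNT and 19.9, 21.2 and 21.3 in shSQLE, a log2 fold change of -1.20 (SE 0.271). SCNN1A, the alpha subunit of the epithelial sodium channel, had 33.1, 35.9 and 53.6 in shNT and 15.3, 24.2 and 14.2 in shSQLE, a log2 fold change of -1.15 (SE 0.339). In SCNN1A replicate 2 was the highest shSQLE library, and replicate 3 was the highest shNT library. CABP1, a calcium-binding regulator of calcium channels, stood at -0.96 (SE 0.325) with values between 11.4 and 26.1.

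The remaining 10 genes have roles that are less settled, and their median was -1.23. MYCT1, a target of MYC, had 570.3, 428 and 599.8 in shNT and 109, 118 and 72.5 in shSQLE, a log2 fold change of -2.42 (SE 0.211), with shNT replicate 2 and shSQLE replicate 3 the lowest of their groups. SLFNL1, a schlafen-like protein, had 137, 171 and 143 in shNT and 56.7, 65.4 and 75.6 in shSQLE, a log2 fold change of -1.18 (SE 0.181). ANKEF1, with ankyrin repeats and an EF hand, had 141, 101 and 133 in shNT and 41.2, 43.96 and 70.8 in shSQLE, a log2 fold change of -1.28 (SE 0.252). KIAA1324 (now ELAPOR1), an oestrogen-induced membrane protein of the endosome and lysosome, was as far below shNT as MYCT1, at -2.41 (SE 0.299). The other 6 genes, the coiled-coil genes CCDC30 and SDCCAG8, the membrane proteins TMEM91 and TMEM217, and the long noncoding RNAs C9orf163 and C17orf82, ran from -1.69 for CCDC30 to -0.94 for SDCCAG8. These 2 noncoding RNAs were the only members that GENCODE release 29 does not list as protein coding, and all 116 names were matched to it.

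**Figure D4:**
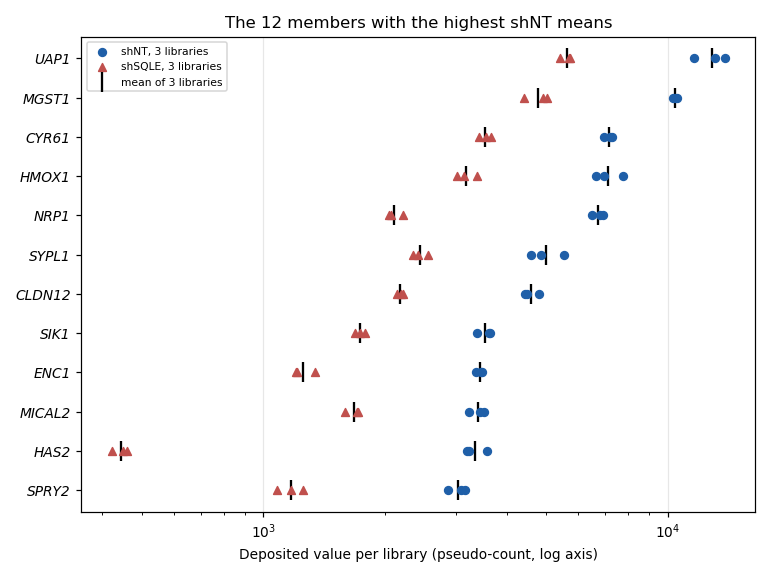
Deposited value in each library (pseudo-count, log axis) for the 12 members with the highest shNT means, with shNT libraries as circles, shSQLE libraries as triangles and the mean of 3 libraries as a vertical mark. Within a group the libraries lie close together. A gap between the groups is there by selection, since the rule admits only genes whose groups do not overlap, and it is widest for HAS2.

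Pathway lists written by hand were looked up in the table to see which of their genes were members. Over the whole table, 382 of the 500 genes had a lower mean in shSQLE, and the counts below are to be read against that share. Of 47 genes of the ERK pathway and its feedback, 1 was in the table, SPRY2. Of 76 growth factor genes, 6 were in the table and all 6 had a lower mean in shSQLE, with HBEGF and CYR61 as members and PDGFB, INHBA, WNT7B and EDN1 under the minimum of 10 in a library. Of 28 targets of YAP and TEAD, 3 were in the table and lower, the members CYR61 and AMOTL1 and the low-level ANKRD1. Of 113 integrins, cadherins and other adhesion genes, 9 were in the table and all 9 were lower, with CDH4 and ICAM2 among the members. Of 65 axon guidance and neural surface genes, 2 were in the table, the members NRP1 and UNC5A. Of 99 actin and contraction genes, 4 were in the table, 3 with a lower mean in shSQLE, the members MYO15B, FSCN2 and RND3, and 1 with a higher mean, FMN1. Of 143 ion channel genes, 5 were lower and 3 higher, and SCN2A and SCNN1A were members. No member came from the 29 keratins and intermediate filaments, of which 4 were in the table and lower, from the 140 transporters, of which 1 was lower and 2 higher, from the 77 interferon-induced genes, of which 1 was lower and 1 higher, or from the 21 targets of transforming growth factor beta, of which PMEPA1 was in the table and lower. Since the table was selected for differing genes, these counts do not say whether a pathway moved.

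Some members lie beside each other in the genome (GRCh38). MYL5 (chromosome 4, 673580 to 682033, plus strand) and MFSD7 (chromosome 4, 681829 to 689441, minus strand) overlap by their ends on opposite strands, and IDUA lies 297555 bases from MFSD7. On chromosome 16, LRRC29 (67207139 to 67227048), PLEKHG4 (67277510 to 67289499) and ZDHHC1 (67394152 to 67416833) lie near each other. On chromosome 17, ADAM11 (44759031 to 44781846), GJC1 (44798448 to 44830816) and HIGD1B (44846353 to 44850480) do so. Exons of another annotated gene covered over 20% of the exon bases of 8 members, LY6K, MTHFS, SRPK3, SLFNL1, ICAM2, HTR2B, TMEM91 and PSCA, and 63 members had no such overlap. In all, 22 of the 116 genes had another member within 500 kb, 2 of the 46 higher genes had another higher gene and 175 of the 499 matched genes of the table had another table gene, shares that also depend on the size of each set, so no clustering is read from them. The log2 fold changes of such neighbours were unlike in size in places, with -2.001 for PLEKHG4 against -1.06 for LRRC29.

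By the annotation that the authors deposited with the table, 105 of the 116 genes had a cellular component. Of these 105, 35.2% were at the plasma membrane, 24.8% in the nucleus and 18.1% extracellular. Among the 336 annotated other genes of the table the shares were 29.5%, 18.8% and 19.9%; no test of these shares was made. The median exon length was 4435 bases for the members and 4663 for the 46 higher genes.

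The size of the decreases rests on the scale of the deposited values, which cannot be checked on a table of genes selected for differing. When the libraries were scaled to the same sum over the 193 well measured genes, the median of all fitted genes moved by 0.44 on the log2 scale, and the median of the members became -0.78. This follows from the construction, since 140 of the 193 genes were wholly lower in shSQLE, so that making their sums equal raises all shSQLE values together, and it does not show which scale is right. All 116 genes were still below 0 on that scale, from -2.45 to -0.50, and for 101 of them the groups still did not overlap. The 15 others were low-level genes such as SDCCAG8, EXOC3L4 and MTHFS. In the 6 fits that each left out 1 library, 72 of the genes stayed at -1 or less in every fit, against 111 with all libraries.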

How the data were processed

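RNA was extracted with TRIzol and sequenced as Illumina libraries from RKO cells, 3 expressing shNT and 3 expressing shSQLE. The authors deposited 1 signal value per gene and library for 500 genes, all past the thresholds of their own comparison (adjusted p under 0.05, at least 2-fold), together with log2 fold changes and p-values of that comparison, which were not used here. The submitters' processing notes name Bowtie 0.12.2 and the build mm8, a mouse build, although the cells and gene names are human. Counting, strand setting and annotation are not given in the sources used here. The signal values are fractional and adjusted to a common library size, so they were treated as normalized values and not as read counts, and depth is unknown.

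Groups came from the labels. Log2(value + 1) was fitted with limma 3.58.1 (R 4.3.3, mean-variance trend, no covariate) over the 473 genes with at least 1 in at least 3 libraries. Only fold changes and SE are given, since the same contrast chose the members. The members and the pathway lists were chosen with earlier results of these data known, and members were placed in function classes by hand after their names were seen. Within a class, values per library are given for the members with the 3 highest shNT means and for the largest decrease, and other members are named by range or single values. MMP1, SPINK1, HBEGF and LCE1F were given in full after their values were seen. GENCODE release 29 (GRCh38) gave positions, exon overlaps and the share of 32-base words of a gene that other genes hold, and RefSeq (GRCh38.p14) gave promoters. Exon length counts the bases in any annotated exon of a gene, so it can exceed the length of a transcript. Alternatives to the minimum, the pseudocount, the filter, the scale, the replicate block and the set of libraries were computed with Python 3.11.15, NumPy 2.4.6 and pandas 2.3.3, and plots were drawn with Matplotlib 3.10.9. Some items are not reported here.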

Additional observations from a re-analysis of the deposited data

How the results depend on the processing

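With no minimum value the number of members was 315 in place of 116, since genes of low value then enter. With a minimum of 5 it was 150, with 20 it was 79, and with overlap of the groups allowed it was 120. Leaving out 1 library at a time gave 116 to 126 genes, which must include the 116 members, since fewer libraries can only relax the rule. The median log2 fold change of the members, -1.22, became -1.08 with a pseudocount of 10 and -0.78 with the libraries scaled to the same sum, which shrinks decreases by construction, and it lay between -1.27 and -1.21 without 1 library. A pseudocount of 10 also moved the medians of the lipid enzymes to -1.49, of the nuclear proteins to -1.01 and of the channels to -0.90, because it weighs most on low values. The other 101 of 104 class medians computed moved by less than the spread between libraries. Their order was less stable, since with a pseudocount of 10 the epidermal genes, at -1.53, were lower than the lipid enzymes, and the kinases, at -0.96, and the channels were closer to 0 than the vesicle and ubiquitin genes, at -1.04. With another pseudocount or without 1 library signs cannot change, because the groups of a member do not overlap, whereas scaling the libraries could change them.

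The replicate numbers were checked for pairing through the deviations of each library from its group mean, whose correlation over genes was 0.0806, 0.0416 and 0.0919 for numbers 1 to 3, too low to treat them as pairs. The fit with a replicate block gave a median log2 fold change of -1.22 and a median SE of 0.227 in place of 0.208, and a fit without the filter gave an SE of 0.209.

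The depth of the libraries is unknown, so no interval for counting error can be given. Genes below 10 in a library, and genes outside the 500, were not described, and the scale of the deposited values rests on genes that were not used here.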
